A study of Mus musculus with 12 samples.

Results

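The genes described here are interferon-stimulated genes and the transcription factors and RNA sensors that regulate them. They were chosen as a written list of 39 mouse gene symbols, and all 39 were found among the 55450 genes counted. They were measured by bulk RNA sequencing of mouse alveolar type II (AT2) cells, the surfactant-making cells of the lung alveolus. The study asked how the aryl hydrocarbon receptor (AhR), a transcription factor activated by small molecules, shapes the response of these cells to cockroach extract (CRE), an allergen preparation. WT cells came from AhR f/f mice, which carry floxed Ahr alleles and no Cre, and AhR cells came from Sftpc-Cre;AhR f/f mice, which also carry Cre under the Sftpc promoter. The cross of Sftpc-Cre with AhR f/f mice was on the C57BL/6 background, and the mice used were 6 to 8 weeks old. The cells received PBS or CRE at 50 µg/ml for 24 h, which made 4 groups of 3 libraries: WT PBS, WT CRE, AhR PBS and AhR CRE. Deletion can occur only in cells in which the Sftpc promoter is or was active. The cells were enriched by removing those that bound antibodies to CD16/32, CD45, Ter119 or Sca-1 and those that stuck to IgG-coated dishes, and then cultured on collagen I, so no AT2 marker was used to pick them.

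Type I and type III interferons act through receptors whose kinases, JAK1 and TYK2, lead to the binding of STAT2 and IRF9 at the interferon-stimulated response element (ISRE) of target genes. Interferon gamma acts through JAK1 and JAK2 and the gamma-activated sequence (GAS) and switches on IRF1 and, through it, further genes. In lung epithelium the products restrict viruses and draw in lymphocytes, and AhR meets the pathway through its target TIPARP, an ADP-ribosyltransferase known to restrain the induction of type I interferon.

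Library totals ranged from 68878065 to 80935797 counts, so that 3 counts, taken as the floor, came to 0.0365 to 0.0446 CPM, the unit used for a count relative to its library's total. CPM values were scaled with the TMM factors of edgeR and compare 1 gene across libraries, whereas levels of different genes are compared by the deposited FPKM, which divide by gene length. Floors cover counting error only. Nothing in the labels says that the replicates of a group are separate animals, so the p-values measure the spread between these samples. An exact two-sided permutation test of 3 libraries against 3 cannot give a p below 0.1 for a single gene, so tests come from models fitted across all genes. Genes were called at an adjusted p below 0.05 by edgeR. The study's own rule, which asks for an unadjusted p below 0.05 by limma-trend and a log2 fold change of more than 0.5 in either direction, is given beside it.

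Ahr itself was at 42.9, 43.8 and 45.1 CPM in WT PBS, 56.2, 50.5 and 50.1 in WT CRE, 49.6, 40.2 and 45.7 in AhR PBS and 51.5, 37.7 and 49.5 in AhR CRE. The genotypes overlapped with either treatment. A count over the whole gene does not show the loss of a floxed exon, so these values check nothing about the genotype. Cyp1b1, a cytochrome P450 gene induced by AhR, was at 344, 404 and 404 CPM in WT PBS, 349, 465 and 460.0 in WT CRE, 59.0, 31.7 and 43.3 in AhR PBS and 63.9, 33.8 and 43.7 in AhR CRE. Every AhR library was far below every WT library, in the direction of the labels. The log2 fold change of Cyp1b1 between AhR and WT cells was -3.10 (SE 0.27, edgeR adjusted p = 0.000879) with PBS and -3.17 (SE 0.27, edgeR adjusted p = 0.000714) with CRE, and edgeR, limma and DESeq2 called it under each setting tried (adjusted p up to 0.0173).

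The AT2 label was checked against 10 AT2 markers, all of which were tested and present. The most abundant, Sftpc, which encodes surfactant protein C, ranged from 3086 to 6492 CPM. The AT2 markers summed to 8489.9, 8796 and 7827 CPM in WT PBS, 7519, 7573 and 6895 in WT CRE, 4584, 6383 and 8974 in AhR PBS and 4792, 6539 and 9412 in AhR CRE. AhR replicate 1 was lowest and AhR replicate 3 highest with either treatment. Other cells left transcripts too. Scgb1a1, the secretoglobin of club cells, was above Sftpc per length, with a mean of 10233 FPKM against 4399.8 FPKM, and Ager of type I cells had a mean of 194 FPKM. The 8 type I markers summed to 1669, 1991 and 2107 CPM in WT PBS, 1119, 1351 and 1403 in WT CRE, 1769, 2398 and 2029.9 in AhR PBS and 1295, 1657 and 1459 in AhR CRE. Their median log2 fold change with CRE was -0.60 in WT and -0.44 in AhR cells, with 0 of 8 above 0 in either, and the replicate block called 4 of them lower in WT and 4 in AhR cells (background 3.63% and 2.13%). The study's rule was met by 3 of the 8 in WT and 3 in AhR cells, all lower (background 4.11% and 3.38%). Their part in the other results was not tested. The 6 club cell markers summed to 4742, 5403 and 7719 CPM in WT PBS, 4034, 4051 and 6229 in WT CRE, 8188, 5053 and 4886 in AhR PBS and 6810.4, 4729.9 and 4371 in AhR CRE. The 6 ciliated cell markers, led by Tppp3, summed to 120.0, 122 and 155 CPM in WT PBS, 103, 116 and 154 in WT CRE, 255.5, 158 and 158 in AhR PBS and 255.2, 159 and 159 in AhR CRE, so that every AhR sum was above every WT sum. None of the 11 marker lists held a gene with 0 counts in all libraries. Of their genes edgeR called 0 in the 5 comparisons (background 0% to 0.262%). With CRE the replicate block called 1 AT2 marker higher and 2 lower in WT cells, and 2 higher and 1 lower in AhR cells (background 3.63% and 2.13%). Of club cell markers it called 1 higher and 1 lower in WT and 1 higher in AhR cells. In WT cells it also called markers of neutrophils (1 higher), leukocytes in general and endothelium (1 higher and 1 lower each) and fibroblasts (1 lower).

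Markers of blood cells differed between replicates. The 8 general leukocyte markers, all tested and led by Cd53, summed to 547, 166 and 96.4 CPM in WT PBS, 523, 193 and 124 in WT CRE, 462, 164 and 185 in AhR PBS and 475, 179.6 and 207 in AhR CRE. Replicate 1 stood above the other 2 replicates in every group, although CD45-positive cells had been removed. The 14 lymphocyte markers, 13 of them tested and led by Cd79a, summed to 229, 37.3 and 14.1 CPM in WT PBS, 193, 30.3 and 11.3 in WT CRE, 164, 39.2 and 62.8 in AhR PBS and 164, 35.8 and 54.1 in AhR CRE, with the same libraries high. The 10 neutrophil markers, led by S100a9, summed to 66.9, 69.5 and 21.2 CPM in WT PBS, 56.8, 69.3 and 40.8 in WT CRE, 20.7, 25.7 and 8.4 in AhR PBS and 30.2, 32.4 and 10.0 in AhR CRE. Their median log2 fold change between AhR and WT cells was -1.45 with PBS and -1.23 with CRE, with 0 of 10 above 0 in either. The study's rule was met by 2 of the 10, lower, with PBS and with CRE (background 4.1% and 3.42%). The 12 alveolar macrophage markers, led by Cd68, summed to 234, 97.2 and 82.3 CPM in WT PBS, 216, 91.6 and 81.8 in WT CRE, 192, 91.8 and 84.6 in AhR PBS and 167, 85.4 and 80.0 in AhR CRE, with a median log2 fold change with CRE of -0.41 in WT and -0.37 in AhR cells and 5 and 4 of 12 above 0. The replicate block called 1 of them higher and 2 lower in either genotype (background 3.63% in WT and 2.13% in AhR cells). In bulk libraries fewer cells of a type and less RNA per cell cannot be told apart.

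Of the 39 genes, 37 (94.9%) passed the filter on low counts, which kept 20612 of 55450 genes (37.2%). Among the 37, 26 (70.3%) had a mean above 1 FPKM, against 60.6% of all genes tested. A mean above 10 FPKM was reached by 6 (16.2%), against 22.9% of all genes tested. The highest mean levels per length were those of Bst2 at 32.2 FPKM, Isg20 at 24.6 FPKM and Ifit3 at 21.0 FPKM. The lowest levels belonged to Cxcl9 and Cxcl11, which encode ligands of the chemokine receptor CXCR3 and did not pass the filter. Cxcl9 had 4, 0 and 0 counts in WT PBS, 0, 0 and 4 in WT CRE, 0, 4 and 4 in AhR PBS and 0, 8 and 0 in AhR CRE. Cxcl11, which is not functional in C57BL/6 mice, had 6 counts in WT PBS replicate 3 and 0 in the other 11 libraries. At this depth no difference between groups was detectable for either.

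The genes varied between libraries about as much as others. The median SD of log2 CPM over the 12 libraries was 0.30 for the 37 genes and 0.33 for all genes tested. Of 36 genes with counts in every library, 20 had less than a ratio of 2 between the highest and the lowest library. The summed CPM of the list was 640.4, 665 and 625 in WT PBS, 679.9, 699 and 660.4 in WT CRE, 763, 687 and 671 in AhR PBS and 779.6, 702 and 707 in AhR CRE. The highest sums were those of replicate 1 of both AhR groups. In those libraries the median log2 deviation from the mean of all libraries was 0.14 with PBS and 0.19 with CRE, against 0.020 and 0.016 over all genes tested. For 8 of the 37 genes (21.6%) replicate 1 was the highest of its group in all 4 groups, as it was for 7.77% of all genes tested. These were Ifit2, Oas2, Oasl1, Bst2, Gbp2, Gbp3, Gbp7 and Zbp1, singled out after their values were seen. Markers of leukocytes in general, lymphocytes, alveolar macrophages, dendritic cells (a list that includes Bst2) and endothelium were highest in replicate 1 of all 4 groups, and club and ciliated markers were highest in replicate 1 of the AhR groups. The part of these cells in the values was not tested.

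CRE was compared with PBS in WT cells to see the response of cells without Cre. By edgeR 0 of the 37 genes were called at an adjusted p below 0.05, where 0.233% of all genes tested were. At an unadjusted p below 0.05 edgeR found 5 (background 9.36%), all higher with CRE: Irf1, Cxcl10, Parp9, Parp14 and Eif2ak2. DESeq2 called 1, Irf1 (background 1.99%), and limma-trend with adjustment called 0 (background 0.243%). Only Cxcl10 met the study's rule (1 gene, background 4.11%). That count was 0 without WT CRE replicate 1 or WT PBS replicate 3, and 2 without WT PBS replicate 2, where Rtp4 joined. With the replicate number as a block, edgeR called 2, Cxcl10 and Parp14 (background 3.63%). The groups did not overlap for 7 genes (background 16.5%): Irf1, Cxcl10, Parp9 and Parp14 were higher with CRE, and Ifi44, Bst2 and Xaf1 lower. The median log2 fold change of the 37 genes was 0.025 (range over the alternatives -0.073 to 0.049), against -0.0012 over all genes tested, and 21 of 37 (56.8%) were above 0, against 49.8%. This median turned below 0 without WT CRE replicate 1 (-0.073) or without WT PBS replicate 3 (-0.057). Those of the named genes that fall outside the rule for naming, here and in the comparisons that follow, were chosen after their values were seen.

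The same comparison was made in AhR cells, from mice that carry Cre. By edgeR 0 of the 37 genes were called (background 0.262%), and 1, Cxcl10, had an unadjusted p below 0.05 (background 6.48%). Cxcl10 was also the 1 gene called by DESeq2 (background 1.11%), by edgeR with the replicate block (background 2.13%) and by the study's rule (background 3.38%). The count by the study's rule was 2 without AhR CRE replicate 1, where Ifi44 joined. Limma-trend with adjustment called 0 (background 0.296%). The groups did not overlap for 3 genes, Mx2, Irgm1 and Cxcl10, all higher with CRE (background 11.8%). The median log2 fold change of the 37 genes was 0.027 (range over the alternatives -0.052 to 0.13), against -0.0027 over all genes tested, and 22 of 37 (59.5%) were above 0, against 49.5%. This median turned below 0 without AhR CRE replicate 1 (-0.052) or without AhR PBS replicate 2 (-0.0057).

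The genotypes were compared in PBS-treated cells to see what differs without the allergen. By edgeR 0 of the 37 genes were called (background 0.15%), and 3 had an unadjusted p below 0.05 (background 8.37%), Ifit1, Ifit3 and Parp14, all higher in AhR cells. DESeq2 called 1, Ifit3 (background 0.998%), and limma-trend with adjustment called 0 (background 0.175%). Ifit1 and Ifit3 met the study's rule (2 genes, background 4.1%). That count was 1 without AhR PBS replicate 1, AhR PBS replicate 2, WT PBS replicate 2 or WT PBS replicate 3, each time Ifit3 alone. The groups did not overlap for 4 genes, Ifit1, Ifit2, Ifit3 and Parp14, all higher in AhR cells (background 14%). The median log2 fold change of the 37 genes was 0.066 (range over the alternatives -0.0027 to 0.19), against -0.0010 over all genes tested, and 23 of 37 (62.2%) were above 0, against 49.8%. This median turned below 0 without AhR PBS replicate 1 (-0.0022) or without WT PBS replicate 3 (-0.0027).

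The genotypes were then compared in CRE-treated cells. By edgeR 0 of the 37 genes were called (background 0.17%), and 3 had an unadjusted p below 0.05 (background 5.95%), Ifit3, Usp18 and Cxcl10. The same 3 met the study's rule, all higher in AhR cells (background 3.42%). DESeq2 called 0 (background 0.742%) and limma-trend with adjustment called 0 (background 0.184%). The groups did not overlap for 4 genes, Ifit2, Ifit3, Usp18 and Cxcl10, all higher in AhR cells (background 11%). The median log2 fold change of the 37 genes was 0.083 (range over the alternatives 0.036 to 0.13), against -0.0034 over all genes tested, and 25 of 37 (67.6%) were above 0, against 49.2%. The comparisons share libraries, so their values are not independent of one another.

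A difference of the CRE response between AhR and WT cells was tested by the interaction term, the log2 fold change in AhR cells minus that in WT cells. By edgeR 0 of the 37 genes were called (background 0%), as by limma-trend with adjustment (background 0%) and DESeq2 (background 0.119%), and 0 met the study's rule (background 2.3%). At an unadjusted p below 0.05 edgeR found 3 (background 3.7%), with Bst2 above 0 and Parp14 and Eif2ak2 below. The median log2 fold change of the 37 genes was 0.048 (range over the alternatives -0.035 to 0.14), against 0.0052 over all genes tested, and 21 of 37 (56.8%) were above 0, against 50.8%. This median turned below 0 without AhR CRE replicate 1 (-0.016), without AhR PBS replicate 2 (-0.0088), without WT CRE replicate 3 (-0.035) or without WT PBS replicate 1 (-0.033).

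**Figure D1:**
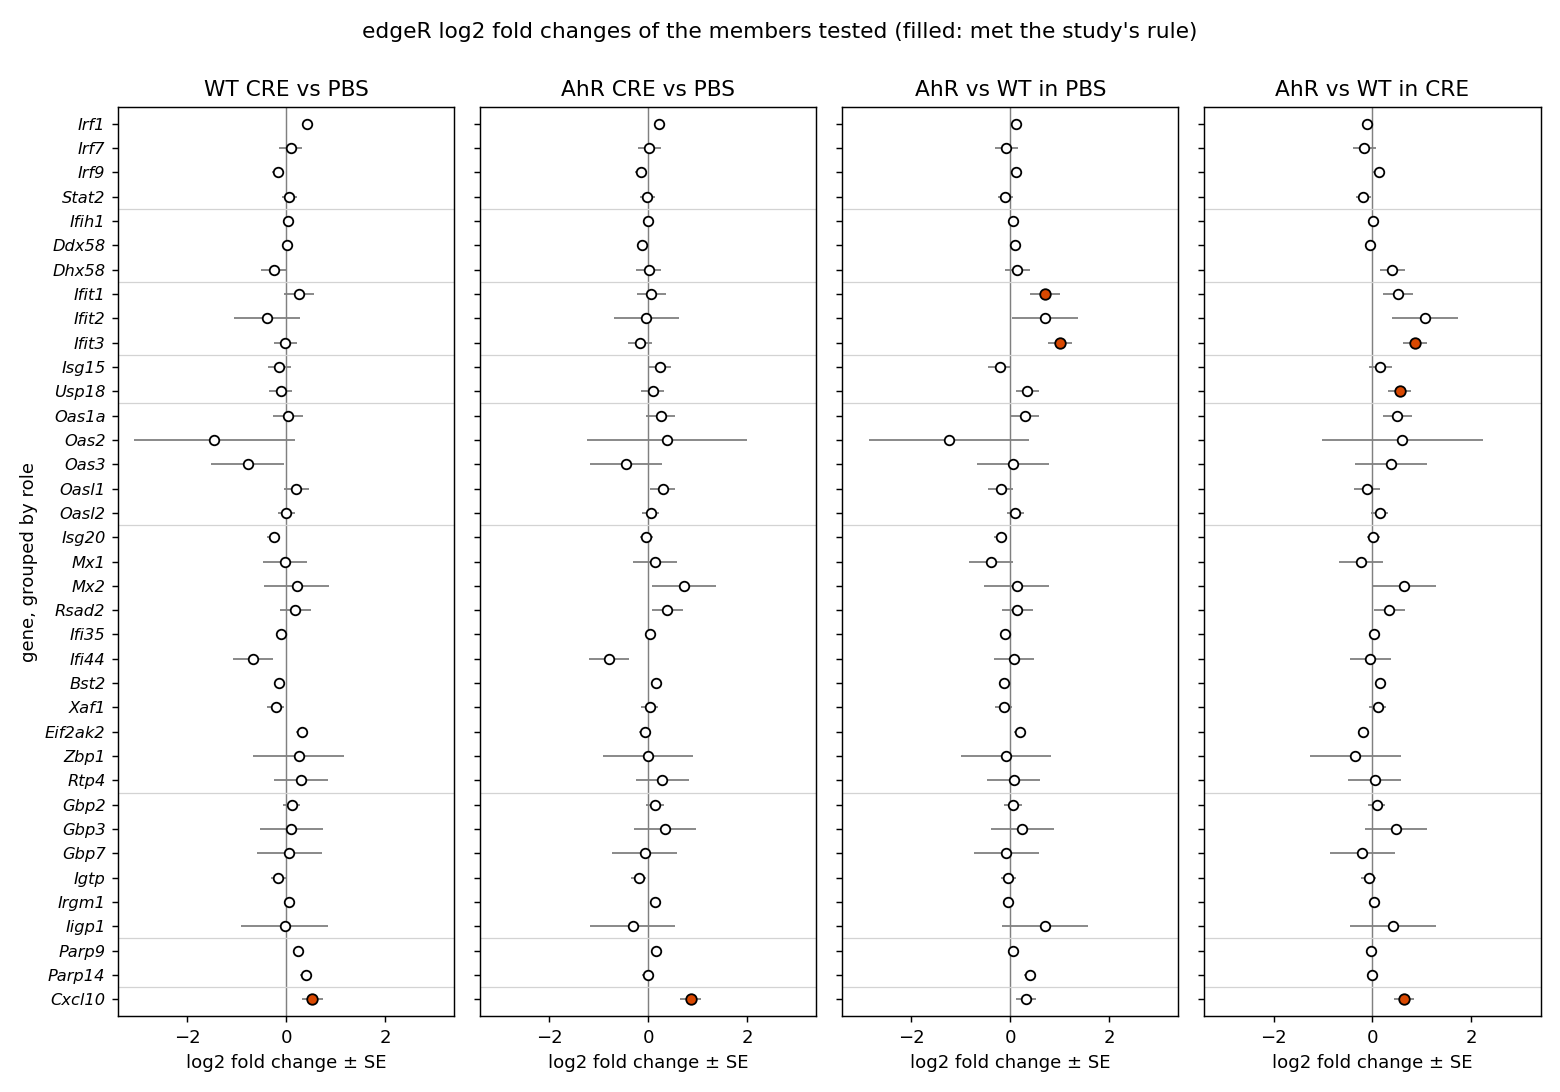
Log2 fold changes by edgeR, with bars of 1 SE, of the 37 genes tested in the 4 comparisons, grouped by role; filled points met the study's rule. Cxcl10 is filled in 3 panels, Ifit3 in both genotype comparisons, and Ifit1 and Usp18 in 1 each.

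Of the transcription factors, Irf1 was the most abundant per length, with a mean of 15.3 FPKM. Irf1, which interferon gamma induces, was at 60.7, 59.1 and 53.6 CPM in WT PBS, 77.7, 72.5 and 82.9 in WT CRE, 72.1, 61.4 and 53.9 in AhR PBS and 72.8, 72.0 and 72.0 in AhR CRE. All WT CRE libraries were above all WT PBS libraries, whereas the AhR groups overlapped through AhR PBS replicate 1. With CRE the log2 fold change was 0.43 (SE 0.10, edgeR adjusted p = 0.167) in WT cells, and DESeq2 gave an adjusted p of 0.0243, the lowest in a range of 0.0243 to 0.461 over the alternatives. In AhR cells it was 0.21 (SE 0.10, edgeR adjusted p = 0.805), and the interaction was -0.22 (SE 0.14, edgeR adjusted p = 1.00). A predicted gene, Gm17334, overlaps Irf1 on the other strand, and whether the counting used the strand is not stated.

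Irf9, which encodes the DNA-binding partner of STAT2, had a mean of 4.53 FPKM and was at 31.4, 27.8 and 23.8 CPM in WT PBS, 26.5, 24.5 and 22.6 in WT CRE, 29.8, 30.6 and 28.9 in AhR PBS and 29.8, 26.1 and 24.4 in AhR CRE. Its groups overlapped in every comparison. Stat2 had a mean of 1.98 FPKM and was at 15.0, 11.0 and 14.4 CPM in WT PBS, 13.0, 15.7 and 13.5 in WT CRE, 14.4, 11.8 and 11.5 in AhR PBS and 13.6, 11.8 and 11.7 in AhR CRE. No group stood apart. Irf7, the factor that amplifies type I interferon, had a mean of 1.54 FPKM and was at 5.67, 8.77 and 5.35 CPM in WT PBS, 6.51, 8.98 and 5.57 in WT CRE, 6.50, 6.0 and 6.16 in AhR PBS and 6.91, 6.48 and 5.47 in AhR CRE. Replicate 2 of both WT groups was the highest and the groups overlapped. None of these 3 genes passed a test in any comparison, and their log2 fold changes lay between -0.19 and 0.12 in the 4 comparisons between groups. Reads of Irf9 may be shared with Rnf31, which it overlaps on the same strand, and those of Irf7 with Phrf1 on the other strand.

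The RNA sensors start the induction of interferon when they meet viral RNA. Ddx58, which encodes RIG-I, averaged 6.79 FPKM and ranged from 47.8 to 62.6 CPM, and Ifih1, which encodes MDA5, averaged 4.86 FPKM and ranged from 38.7 to 49.2 CPM. Dhx58, which encodes the regulator LGP2, was lower, at 0.741 FPKM on average and 1.98 to 3.89 CPM. The groups of all 3 sensors overlapped in every comparison. Their log2 fold changes ranged from -0.25 (Dhx58) to 0.025 (Ifih1) with CRE in WT cells, from -0.13 (Ddx58) to 0.0044 (Dhx58) with CRE in AhR cells, from 0.053 (Ifih1) to 0.14 (Dhx58) between genotypes with PBS and from -0.054 (Ddx58) to 0.40 (Dhx58) between genotypes with CRE.

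The IFIT genes, whose products bind foreign RNA and block its translation, had higher group means in AhR than in WT cells with either treatment, although edgeR called 0 of the 3. Ifit3 was at 28, 33.7 and 22.4 CPM in WT PBS, 31.6, 26.9 and 24.5 in WT CRE, 73.3, 42.0 and 53.4 in AhR PBS and 64.7, 37.8 and 48.3 in AhR CRE. All AhR libraries were above all WT libraries of the same treatment, with replicate 1 the highest of both AhR groups. The sums of ciliated cell markers lay in the same way, with a median log2 fold change between genotypes of 0.46 with PBS and 0.52 with CRE and 5 of 6 above 0 in either. The study's rule was met by 1 of the 6 with PBS and 3 with CRE, all higher (background 4.1% and 3.42%). The part of ciliated cells in the values of Ifit3 was not tested. The group means were 28 ± 5.65 CPM (SD, 3 libraries) in WT PBS, 27.7 ± 3.57 in WT CRE, 56.2 ± 15.8 in AhR PBS and 50.3 ± 13.6 in AhR CRE. Between genotypes the log2 fold change was 1.00 (SE 0.24, edgeR adjusted p = 0.229) with PBS and 0.86 (SE 0.24, edgeR adjusted p = 0.492) with CRE. DESeq2 called Ifit3 with PBS (adjusted p = 0.00842, range over the alternatives 0.00842 to 0.634) and not with CRE (adjusted p = 0.0608, range 0.0608 to 0.985). Ifit3 met the study's rule with each library left out in turn, and without replicate 1 in all groups its log2 fold change was 0.79 with PBS and 0.73 with CRE by limma-trend. For the response to CRE it was -0.018 in WT cells and -0.16 in AhR cells.

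Reads of Ifit3 cannot all be told from those of its near copy Ifit3b, since 61.8% of the stretches of 31 bases in Ifit3 transcripts also occur in Ifit3b. Ifit3b was at 6.08, 7.34 and 5.86 CPM in WT PBS, 5.19, 6.42 and 6.36 in WT CRE, 15.2, 9.58 and 11.6 in AhR PBS and 13.6, 7.27 and 10.6 in AhR CRE. It showed the same order of genotypes as Ifit3, with all AhR libraries above the WT libraries of the same treatment. Ifit3 made up 79.2% to 85.9% of the sum of both genes. The sum, which does not depend on how shared reads were split between them if all were counted, was 34.4 ± 6.40 CPM in WT PBS, 33.7 ± 2.94 CPM in WT CRE, 68.3 ± 18.7 CPM in AhR PBS and 60.7 ± 16.7 CPM in AhR CRE (SD, 3 libraries).

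Ifit1 was at 3.77, 3.92 and 3.63 CPM in WT PBS, 3.32, 4.87 and 5.34 in WT CRE, 7.42, 6.28 and 4.73 in AhR PBS and 9.68, 5.04 and 4.55 in AhR CRE. With PBS all AhR libraries were above all WT libraries, while with CRE the groups overlapped and AhR CRE replicate 1 was far above the other 2. Ifit1 had a log2 fold change between genotypes of 0.70 (SE 0.30, edgeR adjusted p = 0.570) with PBS and 0.51 (SE 0.30, edgeR adjusted p = 0.939) with CRE. Ifit1 met the study's rule with PBS, but not without AhR PBS replicate 1 (0.53 by limma-trend), AhR PBS replicate 2 (0.65), WT PBS replicate 1 (0.67), WT PBS replicate 2 (0.70) or WT PBS replicate 3 (0.65). Without replicate 1 in all groups Ifit1 met the study's rule with PBS (0.53 by limma-trend). With CRE its log2 fold change was then -0.095 by edgeR, in the other direction. Ifit2 was at 12.8, 9.60 and 12.7 CPM in WT PBS, 13.3, 12.4 and 0.913 in WT CRE, 24.0, 17.3 and 15.8 in AhR PBS and 25.3, 14.3 and 16.0 in AhR CRE. All AhR libraries were above the WT libraries of the same treatment, and WT CRE replicate 3 was far below all others. For Ifit2 the log2 fold change between genotypes was 0.70 (SE 0.67, edgeR adjusted p = 0.871) with PBS and 1.06 (SE 0.67, edgeR adjusted p = 0.957) with CRE. The latter was 0.52 without WT CRE replicate 3, 1.47 without WT CRE replicate 1 and 1.74 by limma-trend. With CRE Ifit2 met the study's rule without WT CRE replicate 1 or WT CRE replicate 2, but not with all libraries. Ifit2 shares none of its stretches of 31 bases with another gene and Ifit1 10.5%.

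The 3 genes lie on chromosome 19 (GRCm38), in a stretch of 99.3 kb at chr19:34550694-34650009 that holds 6 genes in the order Ifit2, Ifit3, Ifit1bl1, Ifit3b, Ifit1bl2 and Ifit1. Ifit1bl1 had means of 2.27 ± 0.98 CPM (SD) in WT PBS, 2.60 ± 0.24 in WT CRE, 3.28 ± 1.74 in AhR PBS and 4.35 ± 1.99 in AhR CRE. Ifit1bl2 had 9.40 ± 0.80, 6.79 ± 1.64, 12.2 ± 4.92 and 6.38 ± 2.34 CPM in the same order. Its mean was thus lower in AhR than in WT cells with CRE.

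**Figure D2:**
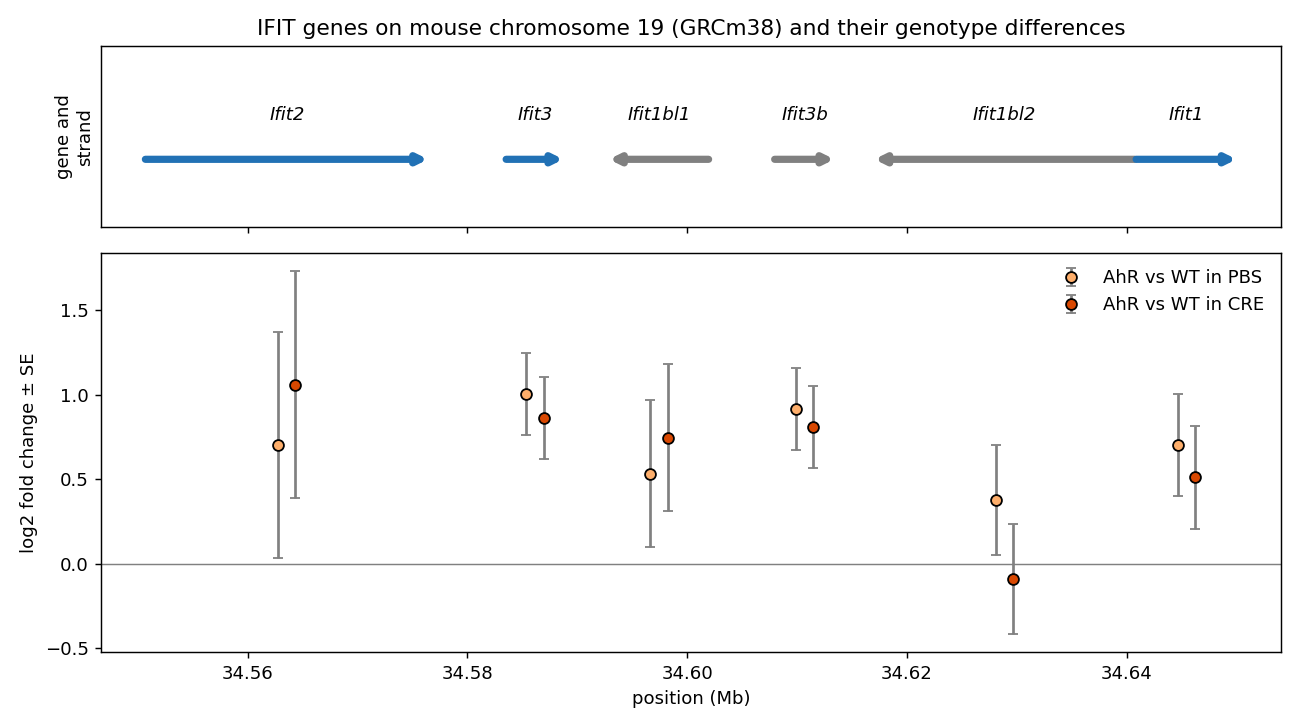
Map of the Ifit genes on chromosome 19 with the edgeR log2 fold change of AhR against WT cells, bars of 1 SE, with PBS and with CRE. Ifit3 is at 1.00 and 0.86, and Ifit3b at 0.91 and 0.81.

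ISG15 is a ubiquitin-like modifier, and USP18 removes it from proteins and dampens signalling from the type I receptor. Usp18, with a mean of 6.40 FPKM, was at 14.6, 17.9 and 20.0 CPM in WT PBS, 14.6, 15.0 and 18.9 in WT CRE, 30.0, 17.9 and 18.6 in AhR PBS and 30.0, 19.2 and 21.7 in AhR CRE. Replicate 1 of both AhR groups was far above every other library, and the genotypes overlapped with PBS but not with CRE. AhR against WT cells gave a log2 fold change of 0.34 (SE 0.23, edgeR adjusted p = 0.770) with PBS and 0.55 (SE 0.23, edgeR adjusted p = 0.826) with CRE. With CRE Usp18 met the study's rule, but not without AhR CRE replicate 1 (0.35 by limma-trend), AhR CRE replicate 3 (0.58), WT CRE replicate 1 (0.46) or WT CRE replicate 2 (0.48). Without replicate 1 in all groups it was 0.27 with CRE, and with PBS it turned to -0.049 by edgeR. Isg15, with a mean of 7.68 FPKM, ranged from 4.35 to 8.35 CPM and its groups overlapped in every comparison. Gm44148 overlaps Usp18 on the other strand.

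The oligoadenylate synthetases make the messenger that activates RNase L when double-stranded RNA is present, and Oas2 and Oas3 were low. Mean levels ran from 0.0229 FPKM for Oas2 to 2.51 FPKM for Oasl2, with Oasl1 at 2.15, Oas1a at 1.85 and Oas3 at 0.0734 FPKM. Oas2 had 38, 0 and 8 counts in WT PBS, 9, 8 and 0 in WT CRE, 16, 0 and 4 in AhR PBS and 17, 5 and 4 in AhR CRE. Its highest count was in WT PBS replicate 1 and it was at 0 in 3 libraries, so its log2 fold changes, such as -1.46 (SE 1.63) with CRE in WT cells, rest on few counts. The groups of all 5 genes overlapped in every comparison. Reads of Oas1a are uncertain, since 68.8% of its stretches of 31 bases occur in other genes, chiefly Oas1g.

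Among the antiviral effectors, Bst2 encodes tetherin, which holds budding virions at the cell surface. It was at 35.6, 33.1 and 32.4 CPM in WT PBS, 31.1, 30.5 and 30.3 in WT CRE, 33.4, 30.9 and 28.2 in AhR PBS and 36.1, 35.8 and 30.9 in AhR CRE. In WT cells every CRE library was below every PBS library, and in AhR cells the order was the reverse with overlap. CRE gave a log2 fold change of -0.14 (SE 0.088, edgeR adjusted p = 0.693) in WT cells and 0.15 (SE 0.088, edgeR adjusted p = 0.873) in AhR cells, and the interaction was 0.29 (SE 0.12, edgeR adjusted p = 1.00). Isg20, an exonuclease for single-stranded RNA, was at 47.0, 63.5 and 61.4 CPM in WT PBS, 46.4, 50.0 and 47.9 in WT CRE, 42.4, 49.6 and 57.9 in AhR PBS and 45.2, 49.1 and 51.4 in AhR CRE. WT PBS replicates 2 and 3 were the highest and the groups overlapped. In WT cells the log2 fold change of Isg20 with CRE was -0.25 (SE 0.13, edgeR adjusted p = 0.60).

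Eif2ak2, which encodes PKR, the kinase that stops translation on double-stranded RNA, averaged 7.04 FPKM and was at 35.4, 34.2 and 38.0 CPM in WT PBS, 37.1, 50.1 and 46.1 in WT CRE, 44.9, 41.1 and 37.2 in AhR PBS and 40.4, 37.2 and 39.4 in AhR CRE. WT CRE replicates 2 and 3 were the highest of all libraries, and WT CRE replicate 1 lay within the range of WT PBS. Its log2 fold change with CRE was 0.31 (SE 0.11, edgeR adjusted p = 0.405) in WT cells and -0.074 (SE 0.11, edgeR adjusted p = 1.00) in AhR cells, and the interaction was -0.38 (SE 0.16, edgeR adjusted p = 1.00). Zbp1, a sensor of Z-form nucleic acids that triggers cell death, was at 3.01, 0.803 and 0.412 CPM in WT PBS, 3.65, 0.845 and 0.537 in WT CRE, 2.45, 0.705 and 0.828 in AhR PBS and 2.48, 0.697 and 0.787 in AhR CRE. Replicate 1 was the highest of every group by far, as were the leukocyte markers, and the groups overlapped in every comparison. Mx1, a GTPase that is truncated in C57BL/6 mice, averaged 0.843 FPKM and ranged from 1.49 to 6.21 CPM, and Rsad2, which encodes viperin, averaged 0.886 FPKM and ranged from 2.12 to 6.62 CPM. Ifi35 at 15.4 FPKM was among the abundant genes, while Xaf1 (1.55), Rtp4 (2.11), Ifi44 (0.0882) and Mx2 (0.0873 FPKM) were lower. Over the 11 effectors the log2 fold changes ranged from -0.68 (Ifi44) to 0.31 (Eif2ak2) with CRE in WT cells and from -0.79 (Ifi44) to 0.72 (Mx2) with CRE in AhR cells. Between genotypes they ranged from -0.39 (Mx1) to 0.20 (Eif2ak2) with PBS and from -0.34 (Zbp1) to 0.64 (Mx2) with CRE. Rtp4 overlaps Gm45338 on its own strand and Masp1 on the other, and the annotation also puts genes on the other strand of Eif2ak2, Ifi35, Dhx58, Oas2, Oasl1 and Gbp2.

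The guanylate-binding proteins and immunity-related GTPases attack the vacuoles of intracellular microbes and are chiefly induced by interferon gamma. Gbp2 was the highest of them with a mean of 10.2 FPKM, followed by Irgm1 at 5.54, Igtp at 3.95, Gbp3 at 0.837, Gbp7 at 0.442 and Iigp1 at 0.0907 FPKM. Gbp3 was at 4.83, 1.20 and 1.62 CPM in WT PBS, 5.03, 2.16 and 1.03 in WT CRE, 4.28, 1.89 and 2.88 in AhR PBS and 5.43, 3.01 and 3.0 in AhR CRE. Replicate 1 was the highest of every group, and this also held for Gbp2 and Gbp7. Irgm1, a regulator of the other GTPases, ranged only from 31.6 to 38.1 CPM, and in AhR cells every CRE library was above every PBS library, with a log2 fold change of 0.13 (SE 0.074, edgeR adjusted p = 0.856). Over the 6 genes the log2 fold changes ranged from -0.16 (Igtp) to 0.11 (Gbp2) with CRE in WT cells and from -0.32 (Iigp1) to 0.34 (Gbp3) with CRE in AhR cells. Between genotypes they ranged from -0.079 (Gbp7) to 0.71 (Iigp1) with PBS and from -0.20 (Gbp7) to 0.48 (Gbp3) with CRE. Igtp shares 15.9% of its stretches of 31 bases with Irgm2, which overlaps it on the same strand, and Gbp7 shares 14.7% with other genes, most with Gm43802, which also overlaps it.

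PARP14 and PARP9 are ADP-ribosyltransferases of the same enzyme family as TIPARP. Parp14, with a mean of 5.64 FPKM, was at 47.9, 47.2 and 46.9 CPM in WT PBS, 58.7, 68.9 and 58.3 in WT CRE, 73.4, 59.8 and 53.5 in AhR PBS and 69, 59.7 and 57.1 in AhR CRE. The WT PBS libraries were close together and below every library of the other 3 groups. The log2 fold change with CRE was 0.39 (SE 0.12, edgeR adjusted p = 0.313) in WT cells and -0.0062 (SE 0.12, edgeR adjusted p = 1.00) in AhR cells. With the replicate block edgeR called the response in WT cells, at 0.38 (adjusted p = 0.0347, the lowest in a range of 0.0347 to 0.695 over the alternatives). Between genotypes the log2 fold change was 0.40 (SE 0.12, edgeR adjusted p = 0.395) with PBS. The interaction was -0.40 (SE 0.17, edgeR adjusted p = 1.00), so the response is not shown to differ between the genotypes. Parp9, with a mean of 5.57 FPKM, was at 26.4, 29.2 and 27.4 CPM in WT PBS, 31.5, 36.2 and 30.1 in WT CRE, 28.4, 31.1 and 26.2 in AhR PBS and 35.1, 30.3 and 30.7 in AhR CRE. All WT CRE libraries were above all WT PBS libraries, with a log2 fold change of 0.24 (SE 0.10, edgeR adjusted p = 0.513). Parp9 is overlapped by Dtx3l on the other strand, and Parp14 overlaps Gm49730 on the same strand.

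Cxcl10, which encodes a chemokine that draws in T cells through CXCR3, was the one member of its role that passed the filter, with a mean of 5.97 FPKM. It was at 11.9, 10.1 and 8.37 CPM in WT PBS, 16.7, 14.1 and 12.9 in WT CRE, 11.1, 11.7 and 15.0 in AhR PBS and 19.1, 19.7 and 29.5 in AhR CRE. In both genotypes every CRE library was above every PBS library, and every AhR CRE library was above every WT CRE library, while the PBS groups overlapped. The group means were 10.1 ± 1.75 CPM (SD, 3 libraries) in WT PBS, 14.6 ± 1.97 in WT CRE, 12.6 ± 2.12 in AhR PBS and 22.8 ± 5.84 in AhR CRE. The log2 fold change with CRE was 0.53 (SE 0.21, edgeR adjusted p = 0.443) in WT cells and 0.86 (SE 0.21, edgeR adjusted p = 0.231) in AhR cells. With the replicate block edgeR called both, at 0.54 (adjusted p = 0.0219, range over the alternatives 0.0219 to 0.805) in WT cells and 0.84 (adjusted p = 0.00518, range 0.00518 to 0.661) in AhR cells. DESeq2 called it in AhR cells alone (adjusted p = 0.0118). The 6 genes of stress and RNA quality summed to 1508, 1340.3 and 1556 CPM in WT PBS, 1699.9, 1792 and 1560.0 in WT CRE, 2006, 1448 and 2055 in AhR PBS and 1349, 1220.1 and 1660.2 in AhR CRE, so that with CRE the sum was higher in 3 of 3 pairs of WT libraries and lower in 3 of 3 pairs of AhR libraries. Their median log2 fold change with CRE was 0.14 in WT and -0.069 in AhR cells, with 3 of 6 above 0 in either. The study's rule was met by 0 of the 6 in WT cells and by 1, lower, in AhR cells (background 4.11% and 3.38%). Of these genes edgeR called 0 with CRE (background 0.233% in WT and 0.262% in AhR cells). The replicate block called 2 higher in both genotypes (background 3.63% in WT and 2.13% in AhR cells). These 2, Hspa1a and Hspa1b, were named after their values were seen. Whether stress has a part in the values of Cxcl10 was not tested.

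By the study's rule the response of Cxcl10 in WT cells was lost without WT CRE replicate 1 (0.43 by limma-trend) or WT PBS replicate 3 (0.41), and in AhR cells it was kept without each library, between 0.64 and 0.97. Between genotypes the log2 fold change of Cxcl10 was 0.32 (SE 0.21, edgeR adjusted p = 0.750) with PBS and 0.64 (SE 0.21, edgeR adjusted p = 0.650) with CRE. With CRE it met the study's rule, but not without AhR CRE replicate 3 (0.42), the highest library. The interaction was 0.33 (SE 0.29, edgeR adjusted p = 1.00), so the larger response in AhR cells is not shown to differ from that in WT cells. Over the alternatives the interaction ranged from 0.095 (without AhR CRE replicate 3) to 0.47 (without AhR PBS replicate 3). Cxcl10 shares none of its stretches of 31 bases with another gene, but Art3 overlaps it on the other strand.

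**Figure D3:**
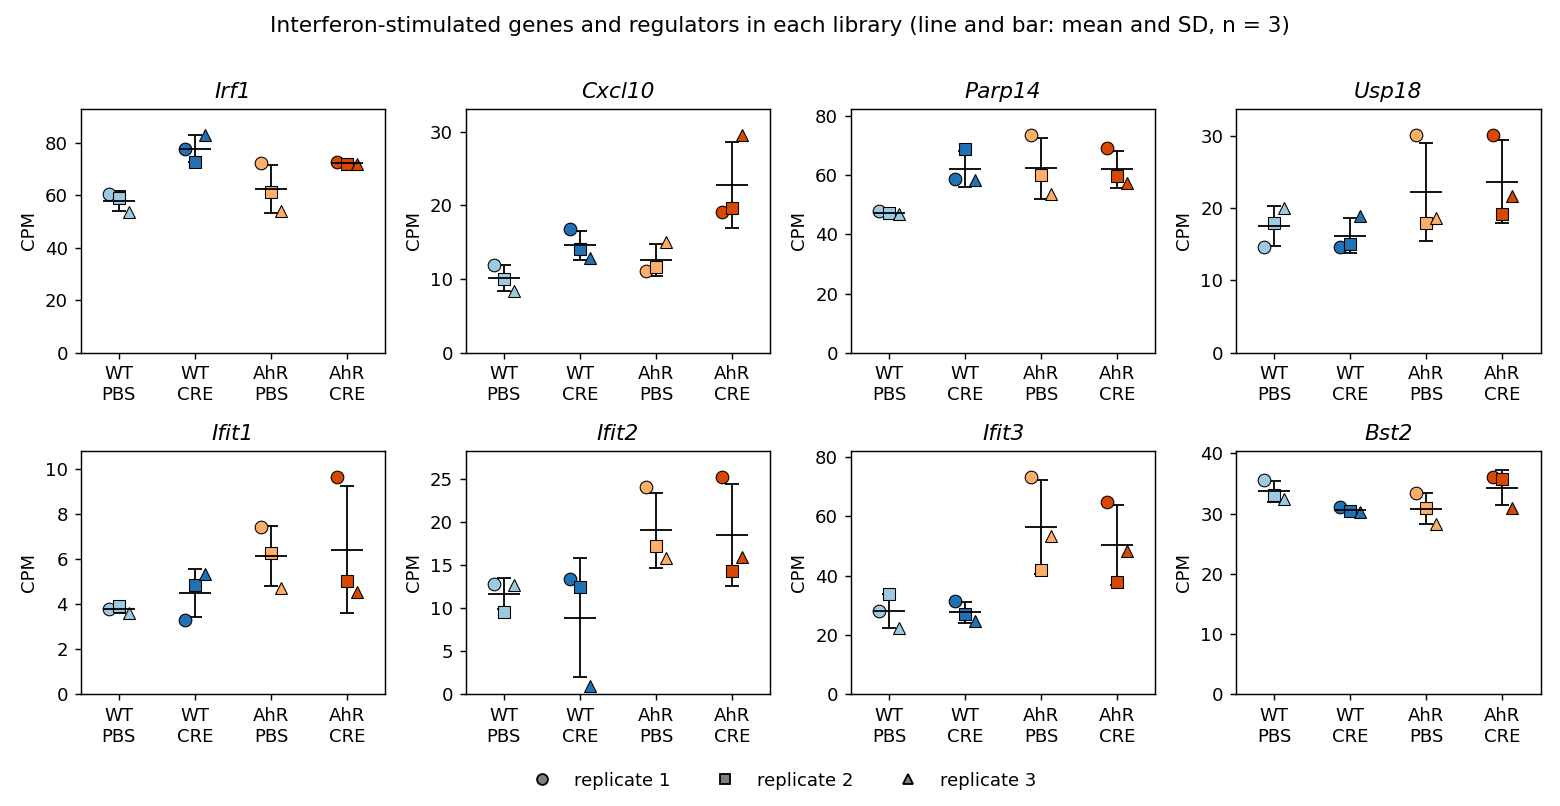
CPM per library of Irf1, Cxcl10, Parp14, Usp18, Ifit1, Ifit2, Ifit3 and Bst2 in the 4 groups, 1 point per library, with the mean and SD of 3 libraries. Cxcl10 is highest in AhR CRE at 22.8 ± 5.84 CPM, and Ifit3 is higher in both AhR groups than in the WT groups.

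The rest of the pathway was followed through 6 lists of 167 other genes, 141 of them tested. Of these edgeR called 2 in any comparison, Tiparp and Samhd1 (background 0% to 0.262% in each comparison). Of the 21 interferon genes, 13 had 0 counts in all 12 libraries, among them most interferon alpha genes, interferon epsilon and 1 of the lambda genes. Ifnab, the only ligand gene that was tested, ranged from 0.160 to 0.597 CPM. Ifnb1, which encodes interferon beta, had 7 counts in WT CRE replicate 3 and 0 elsewhere, and Ifnk had 4 there and 0 elsewhere. Ifnl2 had 4 counts in WT PBS replicate 2, 7 in WT CRE replicate 3 and 0 elsewhere. Ifng, made by lymphocytes, had at most 8 counts and Ifnz at most 12. Ifna2 and Ifna11 had at most 2 and 3 counts, both in AhR PBS replicate 1. Apart from Ifnab, each interferon gene thus had 12 counts or fewer in each library, and a difference between groups was not detectable at this depth.

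The receptors and kinases were all present, and 0 of 9 were called by edgeR in the 5 comparisons (background 0% to 0.262%). Ifnar1 ranged from 32.8 to 58.5 CPM and Ifnar2 from 24.2 to 38.2 CPM (type I receptor). Ifngr1 ranged from 35.1 to 54.9 CPM and Ifngr2 from 93.7 to 121 CPM (interferon gamma receptor). Ifnlr1 ranged from 37.3 to 50.2 CPM and Il10rb from 50.8 to 63.8 CPM (type III receptor). The kinase genes ranged from 187 to 231 CPM for Jak1, 71.1 to 106 CPM for Jak2 and 39 to 54.8 CPM for Tyk2. Of the 9, 9 (all genes 49.8%) with CRE in WT cells, 6 (all genes 49.5%) in AhR cells, 5 (all genes 49.8%) between genotypes with PBS, 5 (all genes 49.2%) with CRE and 4 (all genes 50.8%) for the interaction had a log2 fold change above 0, with medians of 0.11, 0.078, 0.068, 0.010 and -0.050. The study's rule was met by 1 of them, Ifnar1, lower, for the interaction (background 2.3%). It was met by 0 in the other comparisons (background 3.38% to 4.11%). Also tested were 7 further transcription factors and 16 genes of nucleic acid sensing and interferon induction. Of them edgeR called 0 in the 5 comparisons (background 0% to 0.262%).

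Of 14 inhibitors of interferon signalling, edgeR called 1 in both genotype comparisons (background 0.15% with PBS and 0.17% with CRE) and 0 in the others. The study's rule gave the same counts, against a background of 4.1% with PBS and 3.42% with CRE. Tiparp, which AhR induces, was at 119.8, 118 and 110.1 CPM in WT PBS, 141, 156 and 136 in WT CRE, 48.6, 54.2 and 73.6 in AhR PBS and 58.5, 57.5 and 76.7 in AhR CRE. Every AhR library was below every WT library. Tiparp had a log2 fold change between genotypes of -0.98 (SE 0.15, edgeR adjusted p = 0.0414) with PBS and -1.17 (SE 0.15, edgeR adjusted p = 0.0117) with CRE, with adjusted p ranges over the alternatives of 7.52e-06 to 0.356 and 8.42e-09 to 0.176. With PBS the call was lost without AhR PBS replicate 1 (-0.86), AhR PBS replicate 2 (-0.93), WT PBS replicate 1 (-0.96), WT PBS replicate 2 (-0.97) or WT PBS replicate 3 (-1.02). With CRE it was lost without AhR CRE replicate 1 (-1.11), AhR CRE replicate 2 (-1.08) or WT CRE replicate 2 (-1.11). The call of Tiparp was also lost, in PBS-treated cells, with RLE factors (adjusted p = 0.0509), with no filter (adjusted p = 0.05002), with only the libraries compared (adjusted p = 0.210) and without replicate 1 in all groups (adjusted p = 0.356) and, in CRE-treated cells, without replicate 1 in all groups (adjusted p = 0.176). Over the alternatives the log2 fold change of Tiparp lay between -1.17 and -0.83 with PBS and between -1.32 and -1.08 with CRE. Socs1, an inhibitor of the JAK kinases, ranged from 0.965 to 7.52 CPM and was not called.

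Of 94 further interferon-stimulated genes tested, edgeR called 1, higher, in both genotype comparisons (background 0.15% with PBS and 0.17% with CRE) and 0 in the others. The study's rule was met by 3 higher and 4 lower in both genotype comparisons (background 4.1% and 3.42%). With CRE it was met by 1 higher and 3 lower in WT cells (background 4.11%) and by 0 higher and 2 lower in AhR cells (background 3.38%). For the interaction it was met by 0 higher and 1 lower (background 2.3%). Samhd1, which breaks down deoxynucleotides and so limits retroviruses, was at 136, 133 and 133 CPM in WT PBS, 128, 129 and 135 in WT CRE, 179, 194 and 174 in AhR PBS and 187, 212 and 179 in AhR CRE. Every AhR library was above every WT library. The log2 fold change between genotypes was 0.45 (SE 0.071, edgeR adjusted p = 0.0475) with PBS and 0.56 (SE 0.071, edgeR adjusted p = 0.00954) with CRE, with adjusted p ranges over the alternatives of 4.75e-05 to 0.341 and 1.91e-08 to 0.249. With PBS the call was lost without AhR PBS replicate 1 (0.46), AhR PBS replicate 2 (0.40), AhR PBS replicate 3 (0.48), WT PBS replicate 1 (0.46), WT PBS replicate 2 (0.44) or WT PBS replicate 3 (0.44). With CRE it was lost without WT CRE replicate 1 (0.54) or WT CRE replicate 2 (0.55). Over the alternatives the log2 fold change of Samhd1 lay between 0.40 and 0.48 with PBS and between 0.50 and 0.61 with CRE. The call of Samhd1 was also lost, in PBS-treated cells, with no filter (adjusted p = 0.0730), with only the libraries compared (adjusted p = 0.131) and without replicate 1 in all groups (adjusted p = 0.341) and, in CRE-treated cells, with only the libraries compared (adjusted p = 0.168) and without replicate 1 in all groups (adjusted p = 0.249). The replicate block added calls for CRE: Pias1 (-0.44), Tiparp (0.31), Dtx3l (0.37), Cd274 (0.46) and Ifi27 (-0.59) in WT cells as log2 fold changes, where it called 3.63% of all genes tested. In AhR cells, where it called 2.13% of all genes tested, it added Pias1 (-0.38), Dtx3l (0.34), Ifitm3 (0.35) and Ifit1bl2 (-0.93), all named after their values were seen.

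Promoters were read from RefSeq (GRCm38.p6) as the 250 bases before each gene's start, and 28 of 39 genes matched. The motifs searched on both strands were the ISRE, spelled GAAANNGAAA, the GAS, spelled TTCNNNGAA, and the core to which AhR binds, spelled GCGTG, and a base may lie in more than 1 of them. The ISRE was found in 14 of the 28 genes (50%) and in 3.46% of all genes with promoters of this length. The GAS was found in 8 (28.6%), against 8.13% of all genes, and the AhR core in 8 (28.6%), against 30.9%. A gene may have more than 1 start, and the 28 genes had 34 promoters. A match is a description of the letters and not a binding site. The promoters of Ifit1, Ifit3, Cxcl10 and Irf1 are printed, since each of these genes met the study's rule or was called by DESeq2 in a comparison, with the ISRE in capitals in Ifit1, Ifit3 and Cxcl10 and the GAS in capitals in Irf1. They lie at chr19:34640639-34640888 on the plus strand for Ifit1, chr19:34583279-34583528 on the plus strand for Ifit3, chr5:92348890-92349139 on the minus strand for Cxcl10 and chr11:53769764-53770013 on the plus strand for Irf1, each written 5′ to 3′ along its gene.
Ifit1: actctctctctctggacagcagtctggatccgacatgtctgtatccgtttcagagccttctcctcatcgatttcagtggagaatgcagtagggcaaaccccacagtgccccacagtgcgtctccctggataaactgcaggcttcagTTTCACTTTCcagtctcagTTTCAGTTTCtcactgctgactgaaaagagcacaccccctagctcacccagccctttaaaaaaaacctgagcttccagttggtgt
Ifit3: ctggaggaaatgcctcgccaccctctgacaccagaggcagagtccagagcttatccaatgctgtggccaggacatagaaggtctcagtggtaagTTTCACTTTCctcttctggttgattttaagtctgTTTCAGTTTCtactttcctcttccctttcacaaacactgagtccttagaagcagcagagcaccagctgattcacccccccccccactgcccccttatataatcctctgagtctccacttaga
Cxcl10: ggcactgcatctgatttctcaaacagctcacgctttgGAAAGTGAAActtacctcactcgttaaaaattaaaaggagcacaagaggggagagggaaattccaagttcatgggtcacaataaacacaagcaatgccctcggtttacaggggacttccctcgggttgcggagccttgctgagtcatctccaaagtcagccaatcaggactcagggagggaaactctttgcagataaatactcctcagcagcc
Irf1: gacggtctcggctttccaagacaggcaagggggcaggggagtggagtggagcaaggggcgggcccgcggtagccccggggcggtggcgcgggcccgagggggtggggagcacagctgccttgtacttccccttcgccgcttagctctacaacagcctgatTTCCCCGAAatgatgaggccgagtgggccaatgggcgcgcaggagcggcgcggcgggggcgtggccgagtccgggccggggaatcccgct

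Ifit1 and Ifit3 each hold 2 matches to the ISRE in these windows, read on the strand opposite to the gene, and Cxcl10 holds 1 on the strand of the gene. The window of Cxcl10 also holds a match to the AhR core, 222 to 218 bases before the start. Irf1 has 2 promoters, of which the one printed holds 1 match to the GAS and 1 to the AhR core, and the other holds 0 to the GAS and 2 to the AhR core. The genes not matched among the promoters were Zbp1, Mx2, Oas2, Usp18, Iigp1, Mx1, Parp9, Dhx58, Cxcl11, Parp14 and Rtp4.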

How the data were processed

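RNA of 12 libraries was sequenced as stranded mRNA by the authors, who aligned reads with STAR 2.7.2b to GRCm38, name Partek Genomic Suite 6.6 and RefSeq for annotation and took expression by Salmon. The deposited counts are whole and not normalized, and how whole counts came from Salmon is not given in the sources used here. The FPKM deposited by the authors holds 0.0001 where the count is 0. The gene IDs are Ensembl IDs, although RefSeq is named, and all 55450 were found in GENCODE M21. Under R 4.3.3, edgeR 4.0.16 kept 20612 genes (filterByExpr, minimum count 10), scaled them by TMM and fitted 4 group means, tested by quasi-likelihood with p adjusted by Benjamini-Hochberg over all genes (threshold 0.05). Limma-trend (limma 3.58.1, log2 CPM, prior count 2) gave the study's rule. The alternatives were DESeq2 1.42.0, limma with adjustment, RLE factors, library size alone, no filter, 1 CPM in 3 libraries, only the libraries compared, a replicate block and each library left out. Leaving out replicate 1 in all groups, and the study's rule without each library, were added after seeing the data. Pairing was checked by correlating deviations from group means. Libraries of the same number gave 0.51, 0.22 and 0.43 in WT and 0.35, 0.32 and 0.21 in AhR cells. Between genotypes they gave 0.28, 0.038 and 0.060 with PBS and 0.28, -0.014 and 0.035 with CRE. Blocked values therefore stand beside the CRE responses and their difference between genotypes. For the genotype comparisons the block was run only as an alternative. Sharing of sequence was counted in stretches of 31 bases, for the genes of the list only. Every library is given for genes called or meeting the study's rule, the 3 highest by FPKM, Irf1, Irf7, Irf9, Stat2, untested genes and, in the rest of the pathway, Tiparp and genes called, and ranges for receptors, kinases, Socs1, ligands with any count and the most abundant marker. One gene of the pathway planned for this is not reported here. The pipeline was tested on simulated data, where it recovered part of the changes put in and made a few false calls, so a gene that was not called may differ. The members and lists were chosen with earlier results of these data known.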

Additional observations from a re-analysis of the deposited data

Results flagged for a closer look

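Differences with CRE had opposite signs in the genotypes for 2 genes when libraries of the same replicate number were set side by side. Usp18 was lower with CRE in 3 of 3 pairs of WT libraries and higher in 3 of 3 pairs of AhR libraries, with log2 fold changes of -0.12 and 0.093 and a difference of 0.21 (SE 0.33, edgeR adjusted p = 1.00, with the replicate block 0.606). At 3 digits replicate 1 of Usp18 did not differ, with 14.6 CPM in both WT groups and 30.0 CPM in both AhR groups. Its AhR libraries of replicate 1 held 2366 counts with either treatment, so the sign of this pair comes from scaling alone, and by FPKM it was the opposite (9.98 with PBS and 9.94 with CRE). Bst2 was lower with CRE in 3 of 3 pairs of WT libraries and higher in 3 of 3 pairs of AhR libraries, with log2 fold changes of -0.14 and 0.15 and a difference of 0.29 (SE 0.12, edgeR adjusted p = 1.00, with the replicate block 0.494). Neither difference passed the test. Such a pattern, the tied pair included, was found in 2 of 37 genes of the list (5.41%) and in 4.62% of all genes tested.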

How the results depend on the processing

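By edgeR 0 members were called in each of the 5 comparisons, and this held without each library in turn (0 to 0), without replicate 1 in all groups, with RLE factors, library size alone, no filter, 1 CPM in 3 libraries and limma with adjustment. It also held with only the libraries compared, which was run for the 4 comparisons between groups. DESeq2 called 1 member each with CRE in WT cells, with CRE in AhR cells and between genotypes with PBS. The study's rule gave 1 member with CRE in WT cells, 1 in AhR cells, 2 between genotypes with PBS and 3 with CRE, and the replicate block gave 2 with CRE in WT cells and 1 in AhR cells. With replicate number as a block the genotype comparisons, whose libraries are not paired, had 0 members called, against 71 of all genes with PBS and 55 with CRE. Without each library in turn, members by the study's rule numbered 0 to 2 with CRE in WT cells, 1 to 2 in AhR cells, 1 to 2 between genotypes with PBS, 2 to 4 with CRE and 0 to 0 for the interaction. Without replicate 1 in all groups, an alternative chosen after seeing the data, 1 member (Mx2) met the study's rule for the interaction (647 of 20518 genes tested). Between genotypes with CRE 4 members then met it, Ifit3, Mx2, Gbp3 and Cxcl10 (768 of 20518 genes tested), and Usp18 did not. The genotype difference of Ifit1 with CRE reversed to -0.095 and that of Usp18 with PBS to -0.049. The cause was not tested. Of 605 alternative values for named genes, 568 kept direction and side of the threshold, 26 lost a call, 9 gained one and 2 reversed. Most of these values belong to results that were not called and so had no call to lose. All 26 losses were of Tiparp and Samhd1, each in 9 of 15 alternatives with PBS and 4 of 15 with CRE. Of 56 alternative medians, 6 moved by more than 0.0888, the spread between libraries, and 10 turned below 0. RLE factors or library size alone shifted the median of all genes by at most 0.033. Counts near the floor limit what can be said of Cxcl9, Cxcl11, Oas2 and the interferon genes.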

Other observations

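Several Trim genes, a family with interferon-induced members that restrict retroviruses, lie together on chromosome 7 and were singled out after their values were seen, as were the alternatives tried for them. Trim12a was at 23.1, 22.3 and 16.1 CPM in WT PBS, 21.6, 18.9 and 16.5 in WT CRE, 0.152, 8.13 and 0 in AhR PBS and 0, 9.41 and 0 in AhR CRE. Both AhR groups had replicates 1 and 3 near or at 0 and replicate 2 between them and the WT libraries. Trim30d was at 5.16, 3.15 and 2.46 CPM in WT PBS, 4.83, 3.10 and 2.67 in WT CRE, 0.0761, 1.98 and 0 in AhR PBS and 0, 2.51 and 0 in AhR CRE. It showed the same libraries low. Trim34b was at 0.253, 1.38 and 0.490 CPM in WT PBS, 0.747, 0.442 and 0.349 in WT CRE, 4.38, 2.58 and 3.84 in AhR PBS and 5.16, 2.80 and 3.53 in AhR CRE. Its AhR libraries were above all WT libraries. Trim5 was at 6.62, 4.03 and 3.72 CPM in WT PBS, 7.51, 5.08 and 4.50 in WT CRE, 0.482, 2.02 and 0.583 in AhR PBS and 0.571, 2.32 and 0.0524 in AhR CRE, and Trim34a at 17.4, 18 and 14.9 CPM in WT PBS, 16.7, 16.7 and 13.9 in WT CRE, 4.86, 11.6 and 4.71 in AhR PBS and 4.44, 11.0 and 2.65 in AhR CRE. Every AhR library of these genes was below every WT library, with replicate 2 the highest of both AhR groups. Trim12c ranged from 14.2 to 23.0 CPM, with the AhR libraries above the WT libraries with PBS and an overlap with CRE. Trim30a ranged from 1.86 to 10.3 CPM and its genotypes overlapped with either treatment. Sequence shared among these Trim genes was not counted, so how far their reads can be told apart is not known. Of Trim5, Trim12a, Trim30d, Trim34a and Trim34b edgeR called 0 in any comparison (adjusted p of Trim34b between genotypes 0.229 with PBS and 0.150 with CRE), whereas DESeq2 called Trim34b in both genotype comparisons (adjusted p = 0.00207 with PBS and 2.69e-05 with CRE). These 5 genes had already been counted among the 94 further interferon-stimulated genes. With Trim34b higher and the others lower, all 5 met the study's rule in both genotype comparisons (background 4.1% with PBS and 3.42% with CRE). Trim34b met it with each library left out in turn, as did Trim34a, which missed it without replicate 1 in all groups (-1.14 with PBS and -1.50 with CRE). Trim5 met it with CRE with each library left out and missed it with PBS without AhR PBS replicate 1 (-2.06), AhR PBS replicate 3 (-2.19), WT PBS replicate 1 (-2.18), WT PBS replicate 2 (-2.54) or replicate 1 in all groups (-1.80). Trim12a missed it with PBS without AhR PBS replicate 1 (-5.45), AhR PBS replicate 3 (-4.07), WT PBS replicate 1 (-5.82), WT PBS replicate 2 (-5.85) or replicate 1 in all groups (-5.34), and with CRE without AhR CRE replicate 1 (-5.24), AhR CRE replicate 3 (-5.24) or replicate 1 in all groups (-5.14), as log2 fold changes by limma-trend. Trim30d missed it with PBS without AhR PBS replicate 1 (-3.90), AhR PBS replicate 3 (-2.93), WT PBS replicate 1 (-4.00), WT PBS replicate 2 (-4.36), WT PBS replicate 3 (-4.53) or replicate 1 in all groups (-3.60), and with CRE without AhR CRE replicate 1 (-3.73), AhR CRE replicate 3 (-3.74), WT CRE replicate 1 (-4.58) or replicate 1 in all groups (-3.48), as log2 fold changes by limma-trend. By edgeR the log2 fold changes with PBS and with CRE were -2.89 and -2.60 for Trim12a and -2.38 and -2.08 for Trim30d. Over the alternatives those of Trim12a ranged from -8.02 to -2.23 with PBS and from -13.5 to -1.91 with CRE. For Trim30d the ranges were -6.48 to -1.49 with PBS and -11.1 to -1.20 with CRE. Ly6a, which encodes Sca-1, an antigen used to remove cells and itself induced by interferon, ranged from 17.9 to 51.5 CPM.

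The main limits are these. With 3 libraries a group and nothing in the labels on whether they are separate animals, the spread between animals is not known. Replicate 1 was high for leukocyte markers in every group, and the part of leukocytes in the values of Zbp1 and the guanylate-binding genes was not tested. Without replicate 1 in all groups the genotype differences of Ifit1 with CRE and Usp18 with PBS reversed. Neutrophil markers had medians below 0 between AhR and WT cells. A single time point was measured, and the counts do not show protein, splicing or the deleted exon.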
